A study of Homo sapiens with 8 samples.

Results

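AHNAK and AHNAK2 encode 2 giant scaffold proteins, and their peaks were followed through the lists of RNA bound by PTBP1 and by IGF2BP2 in a glioma cell line. All peaks whose gene name in the deposited lists was AHNAK or AHNAK2 were taken. These were 843 peaks named AHNAK and 794 named AHNAK2, together 1637 of 1843422 peaks in 4 lists, and 2 of 19767 gene names. The 2 genes were chosen by their peak numbers and labels in earlier results of the same lists, so those are given as a description, with no p-value for the 2 genes.

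The lists came from eCLIP, in which a protein is crosslinked to RNA in living cells, immunoprecipitated (IP), and its RNA sequenced beside an input kept from the same lysate. The cells were A172, an established human glioma line, with no genetic change named in the labels. All of them took up 500 µM 4-thiouridine, a uridine analogue that crosslinks readily, for 3 h, and were exposed to ultraviolet light 2 times at 400 mJ/cm2. The 4 groups of 2 libraries each were PTBP1 IP, IGF2BP2 IP and their inputs of 2%; membrane pieces of 55 to 130 kDa were cut for PTBP1 and of 65 to 140 kDa for IGF2BP2. PTBP1, which favours pyrimidine-rich RNA, is known as a regulator of splicing. IGF2BP2, also called IMP2, binds mature mRNAs and is known for their transport, stability and translation. The lists held 600615 and 538802 peaks for PTBP1 replicates 1 and 2, and 362700 and 341305 for IGF2BP2. The labels do not say that replicates are separate cultures, and every p-value reflects only the spread between these libraries.

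AHNAK, first described as desmoyokin, lines the inside of the plasma membrane, where it binds the annexin A2 and S100A10 complex and calcium channel subunits. AHNAK2 is its relative. Nearly all of each protein is a run of repeated units, and in both genes nearly all of the coding sequence is known to lie in a single giant exon. Such an exon is an unusually long uninterrupted stretch of mRNA.

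The RefSeq promoter table (GRCh38.p14) was the source of the only member sequence at hand under a peak found in both replicates of a protein. It is a place in the first part of AHNAK, read from the minus strand, chr11:62545926-62545955, with the 11 nt under the IGF2BP2 peaks in capitals. It is shown as an example of a weak site.
AHNAK, IGF2BP2 site near the gene's start: tgctgaggtgGGCGAGGAGGGgggtgcgct
The peak in replicate 1 rested on 14 IP reads and 26 input reads, and that in replicate 2 on 13 and 27. Their log2 of IP over input was 0.85 in each, so neither was called enriched, which took a log2 of 3 or more together with a −log10 p of 3 or more. The sequences of the giant exons were not used here.

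Each deposited score was the log2 ratio of IP to input reads plus a constant that differed between chromosomes, so all scores were put on 1 scale per library, the median constant of 24 chromosomes. AHNAK lies on chromosome 11, where this hardly moved the scores. AHNAK2 lies on chromosome 14, where it lowered them by 2 log2 units or more in all 4 lists. Unless said otherwise, log2 values below are on this common scale.

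The first question was whether the region label of the AHNAK peaks fits the giant coding exon. Most AHNAK peaks crowded into a stretch of 17.91 kb on the minus strand, chr11:62516168-62534072 (hg38), called here the dense block. PTBP1 had 195 and 181 peaks there and IGF2BP2 had 116 and 106. All of these peaks are labelled intron in the deposited lists. The block was drawn 3′ of every AHNAK peak labelled coding sequence, so its 0 coding labels follow from how it was drawn. Over the whole gene, 233 and 219 of the 240 and 226 PTBP1 peaks were labelled intron. With IGF2BP2, 179 and 179 of 188 and 189 were.

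The block was drawn around crowded peaks, so its peak density is a description. It held 10.9 and 10.1 PTBP1 peaks per kb, against 0.168 and 0.147 sense peaks per kb in the rest of the RefSeq gene, which spans 62433544 to 62546806 and so runs on for 82.6 kb 3′ of the block. For IGF2BP2 the block held 6.48 and 5.92 peaks per kb, against 0.524 and 0.535 in the rest. It had no peak on the opposite strand in any list. It was also deep in the input, where no protein was selected. The median input reads of its PTBP1 peaks were 58 and 50, against 14 and 22 at the few other sense peaks labelled intron (9 in each list). For the IGF2BP2 peaks the medians were 35 and 37 in the block, against 14.5 and 16 elsewhere in sense introns. Peaks labelled coding sequence or untranslated region outside the block had the deepest input, with medians of 103 and 150 for PTBP1 and 104 and 131 for IGF2BP2, from 4 to 7 peaks a list. Input depth in the block thus lay between those of the other classes in all 4 lists. Reads could not be read back for peaks at the top −log10 p of 400, so 96 and 67 of the PTBP1 block peaks and 2 and 3 of the IGF2BP2 ones are left out of these medians. Exon coordinates were not used here, so how the block matches the annotated exon was not tested.

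By the rule set for both genes, the giant exon was the longest block of peaks labelled coding sequence. In AHNAK that rule found only 1.096 kb, chr11:62535003-62536098, just 5′ of the dense block. So short a stretch cannot be taken as the giant exon, and its shares describe the stretch alone. The stretch held 2.5% and 1.77% of the PTBP1 peaks and 1.60% and 2.12% of the IGF2BP2 peaks, and none of them was labelled intron. The mean difference between the proteins was 0.279 percentage points, and the groups overlapped. With the dense block in its place, which was set once the values had been seen, the shares were 81.25% and 80.1% for PTBP1 and 61.7% and 56.1% for IGF2BP2. The groups did not overlap, and the difference was 21.8 percentage points. With only 2 libraries a group, groups can easily fail to overlap without any difference. Here and below, non-overlap is a description only.

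AHNAK2 showed the opposite label. Its giant exon by the rule was 16.82 kb on the minus strand, chr14:104938209-104955029, and all peaks in it were labelled coding sequence. PTBP1 had 307 and 244 peaks in the 2 replicates there, which were 100% of its AHNAK2 peaks in both lists. IGF2BP2 had 114 and 103, or 87.0% and 92.0%, with the others mainly in introns (15 and 8). The difference was 10.5 percentage points, and the groups did not overlap. AHNAK2 had more peaks labelled coding sequence than any other gene in 3 of the 4 lists. In IGF2BP2 replicate 2 the mucin gene MUC5B had 109, against 103. In the PTBP1 lists the next gene was PLEC, the giant linker plectin, with 142 and 125.

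The 2 blocks were of similar length, but labels were used to draw each, so their opposite labels follow in part from that. Over all its peaks, AHNAK had 6, 4, 3 and 4 labelled coding sequence in the order PTBP1 1 and 2, IGF2BP2 1 and 2. AHNAK2 had 307, 244, 114 and 103. Among 18 other genes with a giant coding exon, the median share of peaks labelled coding sequence over the 4 lists was 54.6%, and 6 of the 18 were under 15%. AHNAK is therefore not alone in that list in a low share. By label alone, the genes nearest to AHNAK among 4627 with at least 100 peaks were HPCAL1, USP10 and GAS6, with distances of 0.031, 0.040 and 0.042 over 16 shares (4 labels in 4 lists).

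The next comparison was how strongly the 2 genes stood above their inputs. AHNAK was strongly enriched with PTBP1, and few AHNAK2 peaks reached the threshold on the common scale. In PTBP1 replicates 1 and 2, 99 and 104 AHNAK peaks were enriched, 41.25% and 46.0% of them, against 2.92% and 2.82% of all peaks. In IGF2BP2, 49 and 59 were enriched, 26.1% and 31.2%, against 9.19% and 9.36% of all peaks. AHNAK thus exceeded the background in every list. In both PTBP1 lists it had more enriched peaks than any other gene, ahead of KCNMA1, a potassium channel gene, with 92 and 76. With the scores as deposited it ranked 21 and 20 in those lists, which COL18A1 then led with 432 and 400. It ranked 24 and 20 among genes in the IGF2BP2 lists, which MAD1L1 led with 199 and 188. Because of the label, AHNAK made up 0.917% and 1.10% of all enriched PTBP1 peaks labelled intron (10799 and 9410). These counts take each abutting piece as 1 peak, and the 240 and 226 AHNAK peaks of PTBP1 made only 103 and 96 joined stretches. Where reads could be read back, PTBP1 peaks of the dense block had medians of 489 and 364 IP reads, against 12 and 9 over each list. The enriched shares and ranks were not set at matched depth.

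Nearly all of the enriched PTBP1 peaks in AHNAK lay in the dense block, 95 and 99 of them, and 39 and 42 of those of IGF2BP2. The median log2 of the block's peaks was 2.99 and 3.06 with PTBP1 and 2.56 and 2.65 with IGF2BP2, so the libraries of the 2 proteins did not overlap. Over all its peaks, AHNAK ranked 2 among 1154 and 988 genes with at least 100 peaks in the PTBP1 lists, behind NBDY. In the IGF2BP2 lists it ranked 191 among 513 and 179 among 473. Enrichment is relative to each library's own input and scale, and a level of 1 protein cannot be read as stronger binding than that of the other.

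AHNAK2 had high scores as deposited and lower ones on the common scale. Its median deposited log2 in the block was 4.12 and 4.07 with PTBP1, and 2.64 and 2.61 with IGF2BP2. On the common scale these were 1.29 and 1.24, and 0.57 and 0.60. By median log2 over all its peaks, AHNAK2 ranked 49 of 1154 and 305 of 988 genes with at least 100 peaks in the PTBP1 lists. In the IGF2BP2 lists it ranked 504 of 513 and 464 of 473. With the scores as deposited, 305, 241, 46 and 38 AHNAK2 peaks passed the thresholds in PTBP1 1 and 2 and IGF2BP2 1 and 2, and on the common scale 1, 1, 2 and 3 did. Those are 0.326%, 0.41%, 1.53% and 2.68% of its peaks, all below the shares of all peaks given above. AHNAK changed little, from 100, 110, 55 and 67 to 99, 104, 49 and 59. Even so, 99.7% and 99.6% of the AHNAK2 peaks of PTBP1 stayed above a log2 of 0. With IGF2BP2, 85.5% and 82.1% did. In reads, the IGF2BP2 block peaks had medians of 58 and 53 IP against 147 and 145 input. They are above a log2 of 0 only through the library constants of 1.74 and 1.91.

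**Figure D1:**
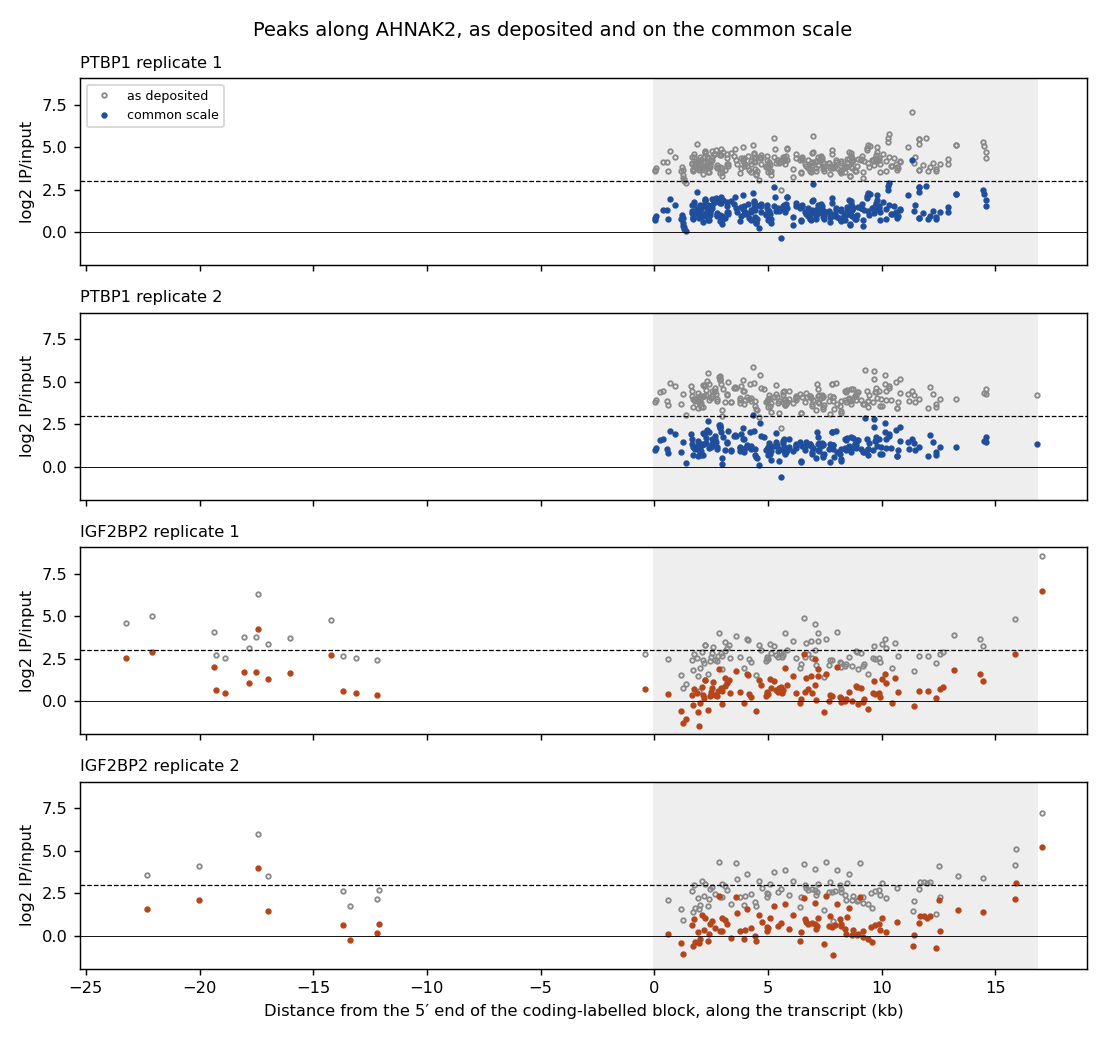
Peaks of AHNAK2 in each list by distance along the transcript (x axis, kb from the 5′ end of the coding-labelled block, shaded) and log2 of IP over input (y axis), as deposited (grey rings) and on the common scale (filled). The dashed line marks 3. On the common scale 1 PTBP1 peak per list stays above it, while IGF2BP2 also has peaks in upstream introns and 1 beyond the block's 3′ end.

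AHNAK2 also filled the top of the deposited p-values. All 307 and 243 of its 244 PTBP1 peaks had the −log10 p of 400, as did 21 and 17 of the IGF2BP2 peaks. Only 96 and 67 AHNAK peaks of PTBP1 and 2 and 3 of IGF2BP2 did. A value of 400 appears to mark any peak past about 88: the highest value of a peak with at least 5 input reads was 87.8 to 88.2 in the 4 lists, and every peak between 90 and 400 had at most 4 input reads. The 400 is thus no measure of strength among AHNAK2 peaks. The p-values rest on the deposited constants, which on chromosome 14 raise every peak of AHNAK2.

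Within the dense block of AHNAK, both proteins had many enriched peaks in the same bin, from 4 to 6 kb, and they differed at the 3′ end. In 2-kb bins from the 5′ end, PTBP1 had most enriched peaks between 4 and 8 kb, with 22 and 22 in the bin from 4 kb and 18 and 24 in the bin from 6 kb. It had 2 and 2 in the bin from 14 kb and 0 and 0 in the last bin. IGF2BP2 had 8 and 12 enriched peaks in the bin from 4 kb. It then had 4 and 4 in the bin from 14 kb and 6 and 5 in the last. In the last bin PTBP1 had 4 and 4 peaks of any strength and IGF2BP2 12 and 11. The 3′-most kb held 1 and 1 PTBP1 peaks, none enriched, and 6 and 6 IGF2BP2 peaks with 4 and 4 enriched. The 3′ end of the AHNAK block was thus occupied mainly in the IGF2BP2 lists. This follows in part from how the block was drawn, from replicated peaks of both proteins. Its 3′ edge, 62516168, is the start of an IGF2BP2 region, while the 3′-most PTBP1 region found in both replicates starts at 62517012. The bins were described after their values were seen and have no test.

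**Figure D2:**
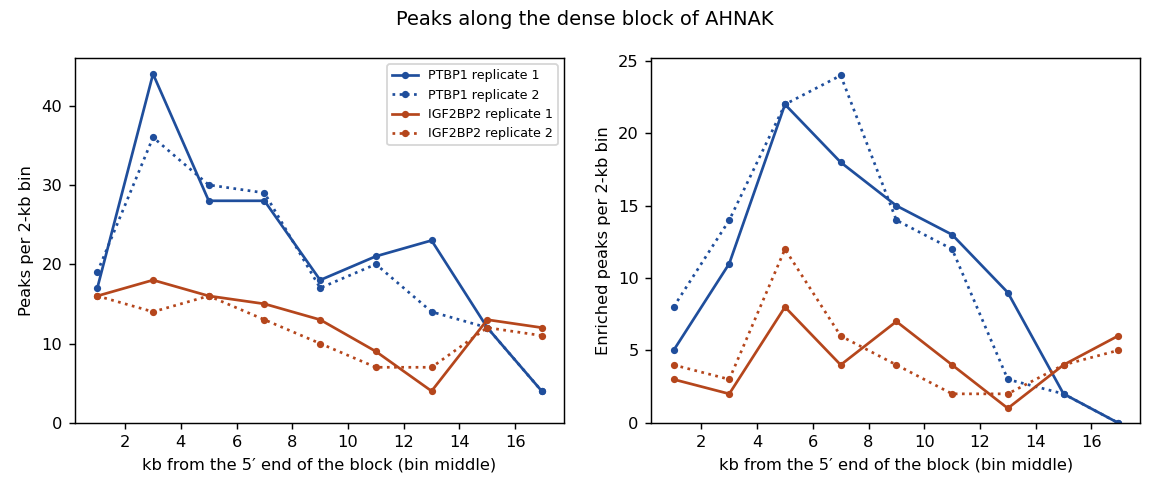
Peaks (left) and enriched peaks (right) per 2-kb bin along the dense block of AHNAK, against the distance of the bin's middle from the 5′ end in kb; each line is 1 library. PTBP1 falls to 0 enriched peaks in the last bin, which is slightly shorter, where IGF2BP2 has 6 and 5.

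Next, the strongest places found in both replicates were listed, and some were common to both proteins. For AHNAK and PTBP1 there were 124 such regions, 93 of them in the block, and 57 were enriched in both replicates. The share enriched in both among replicated regions of all genes is not given here. This count and those that follow for AHNAK and AHNAK2 therefore have no background. The highest by the lower of the 2 scores was chr11:62531450-62531521, with log2 values of 6.16 and 7.22. In replicate 2 it rested on 471 IP reads and 3 input reads (log2 interval 5.66 to 9.50, exact, 95%). The next was chr11:62529307-62529310, only 4 nt long, with 5.99 and 6.99, and the third was chr11:62527920-62527955, with 7.17 and 5.68. They lie 2.59, 4.76 and 6.13 kb from the 5′ end of the block. Each is labelled intron and lies on the gene's strand.

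For AHNAK and IGF2BP2 there were 127 regions in both replicates, 74 of them in the block, and 27 were enriched in both. The highest was chr11:62516313-62516363, 17.7 kb from the 5′ end and so at the far 3′ end of the block. Its log2 values were 7.95, from 148 IP reads and 2 input reads (exact 95% interval 6.07 to 11.0), and 8.93, from 130 and 1 (6.42 to 14.2). The next was chr11:62527931-62527987, with 5.46 and 7.21, from 92 and 7 reads and from 79 and 2. It overlaps the third PTBP1 region, so this place ranked among the top 3 for both proteins. The third was chr11:62519606-62519631, with 5.38 and 6.91 from 25 and 2 and from 32 and 1 reads. Intervals cover counting error only, since how PCR copies were treated is not given in the sources used here.

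AHNAK2 had no such peaks in its exon. PTBP1 had 143 regions found in both replicates, all in the block, and 0 were enriched in both. The highest were chr14:104950681-104950691 (log2 2.31 and 3.02), chr14:104951132-104951159 (2.19 and 2.31) and chr14:104952082-104952119 (2.07 and 2.06). IGF2BP2 had 81 regions, 76 in the block, and 2 were enriched in both, each outside the block. The first was chr14:104937985-104937999, labelled 3′ UTR, with 6.49 from 27 IP reads and 1 input read (exact 95% interval 3.89 to 11.8) and 5.23 from 20 and 2 (3.19 to 8.37). The other was chr14:104972449-104972456, labelled intron, with 4.24 and 3.99 from 17 and 3 and from 17 and 4 reads. The third was chr14:104948429-104948450 in the coding sequence, with 2.81 and 2.21. Both genes thus had their highest IGF2BP2 region near the 3′ end of the block, inside it in AHNAK and just beyond it in AHNAK2. In AHNAK that end was itself set by IGF2BP2 peaks.

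Repeated sequence is the hallmark of both proteins, and the covered nucleotides recurred along both blocks. The covered nucleotides of each library were shifted along themselves by 200 to 1000 nt, and the lag of the highest autocorrelation was noted. In AHNAK it was 398 and 391 nt with PTBP1 and 404 and 386 nt with IGF2BP2, with r of 0.236, 0.22, 0.133 and 0.124. In AHNAK2 it was 496 and 495 nt with PTBP1 (r of 0.341 and 0.315) and 495 nt in IGF2BP2 replicate 1 (0.292). In IGF2BP2 replicate 2 the maximum was at 993 nt (0.262). The mean of the 4 libraries peaked at 399 nt, or 133 codons, in AHNAK (r = 0.175) and at 495 nt, or 165 codons, in AHNAK2 (r = 0.302). A further maximum lay near 2 lags in both, at 796 nt (0.112) and 993 nt (0.251). The positions share libraries and RNA, and these correlations across 17905 and 16821 nt are a description with no test.

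**Figure D3:**
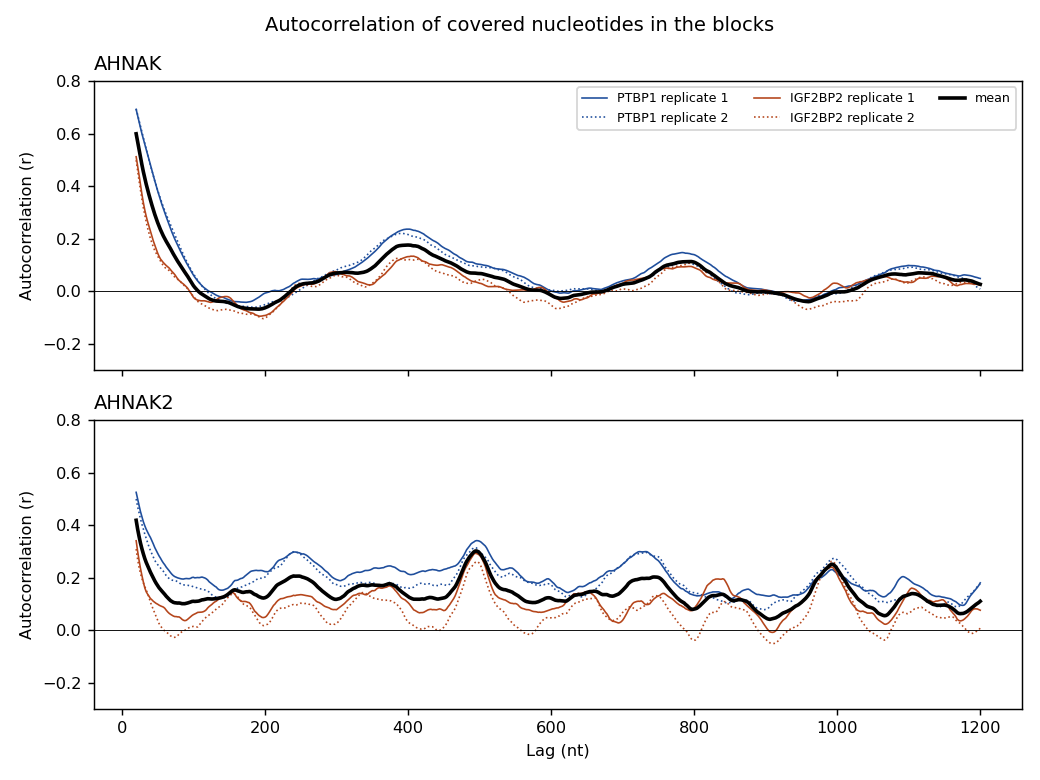
Autocorrelation of covered nucleotides (y axis, r) against lag in nt (x axis) in the blocks of AHNAK and AHNAK2, for each library and their mean (black). The mean peaks at 399 nt in AHNAK and at 495 nt in AHNAK2, with a further maximum near 2 lags.

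The same measure was taken in 9 other genes with a giant exon that had enough peaks. MKI67, which encodes the proliferation marker Ki-67 and also holds repeats, gave 360 nt (r = 0.148), and SRRM2 gave 441 nt (0.0971). In PLEC the mean was highest at 217 nt (0.141), close to the lowest lag examined. MAP1B gave 257 nt with a mean r of 0.234, above that of AHNAK. Like AHNAK, PLEC (217 to 223 nt) and SRRM2 (422 to 445 nt) had similar lags in all 4 libraries. Neither the agreement nor the size of r is thus particular to AHNAK. The mean r of AHNAK2 (0.302) was above that of each of the 9 genes. In PTBP1 replicate 1 alone, MAP1B (0.379) was above AHNAK2 (0.341). How reads from near-identical repeat units were placed is not given in the sources used here, and its part in the recurrence was not tested. A read that fits several units of AHNAK or AHNAK2 can be placed in the wrong unit, so single positions inside the blocks are less certain than their totals.

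The peaks of the 2 genes were found again between replicates more often than all peaks of the same list. For AHNAK, 93.3% and 95.1% of the PTBP1 peaks overlapped a peak of the other replicate by at least 1 nt, and 83.0% and 83.1% of the IGF2BP2 peaks did. For AHNAK2 these were 90.2%, 93.0%, 70.2% and 80.4%. The Wilson 95% intervals for AHNAK2 in IGF2BP2 ran from 61.9% to 77.4% and from 72.1% to 86.7%; they cover counting error only, and peaks of 1 gene in 1 library are not independent. Over all peaks the shares were 55.6%, 61.5%, 48.2% and 51.6%. Peaks of more than 50 IP reads reached 91.9%, 94.9%, 95.5% and 95.8%. The block peaks alone gave 94.9%, 97.2%, 86.2% and 91.5% in AHNAK and 90.2%, 93.0%, 76.3% and 82.5% in AHNAK2. The IGF2BP2 block shares of both genes lay below those of IGF2BP2 peaks of more than 50 IP reads. Not all block peaks of IGF2BP2 exceed 50 reads, so those shares are not set at matched depth.

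The 2 proteins covered many of the same nucleotides. In the AHNAK block the correlation of covered nucleotides was 0.895 between the PTBP1 replicates and 0.768 between the IGF2BP2 replicates, against 0.563 to 0.585 between proteins. In the AHNAK2 block it was 0.82 and 0.676, against 0.458 to 0.516. Of the AHNAK peaks of PTBP1, 77.5% to 82.1% overlapped an IGF2BP2 peak, and of those of IGF2BP2, 63.0% to 64.4% overlapped a PTBP1 peak. For AHNAK2 the shares were 50.8% to 60.7% and 75.6% to 77.9%. Over all peaks of more than 50 IP reads, these shares were 46.9% to 53.3% for PTBP1 and 80.4% to 82.0% for IGF2BP2. Library by library, both genes lay above that class for PTBP1 and below it for IGF2BP2. That class is not matched in depth: IGF2BP2 peaks of AHNAK in sense introns outside the block had medians of 13 and 14 IP reads. Over all peaks the shares were 19.24% to 21.24% for PTBP1 and 34.5% to 37.05% for IGF2BP2, and both genes lay above these. In both blocks the libraries of 1 protein resembled each other more than those of the other.

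The last comparison was peak density, the number of peaks of a gene per 10000 in the list. AHNAK had relatively more peaks with IGF2BP2, and AHNAK2 relatively more with PTBP1. AHNAK had 4.00 and 4.19 peaks per 10000 with PTBP1 and 5.18 and 5.54 with IGF2BP2. The groups did not overlap, and the log2 difference was -0.39 ± 0.08 (SE, from limma). AHNAK2 had 5.11 and 4.53 with PTBP1 and 3.61 and 3.28 with IGF2BP2. Its log2 difference was 0.48 ± 0.10 (SE, from limma), and its groups did not overlap either. Of 15145 genes tested with limma, 25.0% had an adjusted p under 0.05, 12.7% toward PTBP1 and 12.3% toward IGF2BP2, and the median log2 difference was -0.01. A difference between the proteins is thus common among genes.

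The direction depended on what was counted. Peaks of a list never overlap but many abut, and 77.5% and 77.4% of the AHNAK peaks of PTBP1 touched another peak of the gene, against 31.9% and 30.2% for IGF2BP2. For AHNAK2 these shares were 78.8%, 65.6%, 19.9% and 17.9%, and over all peaks 14.8%, 15.5%, 43.9% and 44.7%. The PTBP1 signal in both genes was thus cut into short pieces, with a median length in the blocks of 17 and 19 nt in AHNAK and 15 and 16.5 nt in AHNAK2. In the IGF2BP2 lists the medians were 30 and 32.5 nt, and 24 and 23 nt. By median length over all their peaks, AHNAK and AHNAK2 ranked 1150 and 1151 of 1154 genes in PTBP1 replicate 1, among the shortest. In the IGF2BP2 lists AHNAK ranked 13 of 513 and 13 of 473, among the longest. With abutting peaks joined, an alternative chosen after seeing the data, AHNAK2 turned to -0.65 ± 0.10 (SE), and AHNAK moved to -1.59 ± 0.10. By covered nucleotides, AHNAK2 was at -0.80 ± 0.11 (SE) and AHNAK at -1.59 ± 0.11.

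Counting enriched peaks only, AHNAK turned the other way, with a log2 difference of 1.91 ± 0.21 (SE) toward PTBP1. This turn was not particular to AHNAK. Among the listed genes, AKAP12 (3.92), MKI67 (2.82), ANXA2 (2.57), MYOF (2.43) and CD44 (1.44) also turned toward PTBP1. So did MAP1A (1.26), MAP1B (1.07), SRRM2 (0.95) and SON (0.77). PLEC, PLCG1 and PTPRC stayed toward IGF2BP2, and DYSF (-0.94) and ZFHX3 (-0.04) turned toward it. Of all these, SRRM2, SON, PLEC, PLCG1, DYSF and ZFHX3 did not pass the threshold in this fit. AHNAK2 had too few enriched peaks for this fit. Counting only peaks above input on the common scale, also chosen after seeing the data, left AHNAK at -0.15 and AHNAK2 at 0.95. Peak number, covered length and enrichment therefore ranked the 2 proteins differently in the same genes. In absolute terms the covered lengths in AHNAK were alike: 6166 and 6076 nt with PTBP1 and 6083 and 6093 nt with IGF2BP2. In AHNAK2 they were 5297 and 4883 nt against 3204 and 2674 nt.

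**Figure D4:**
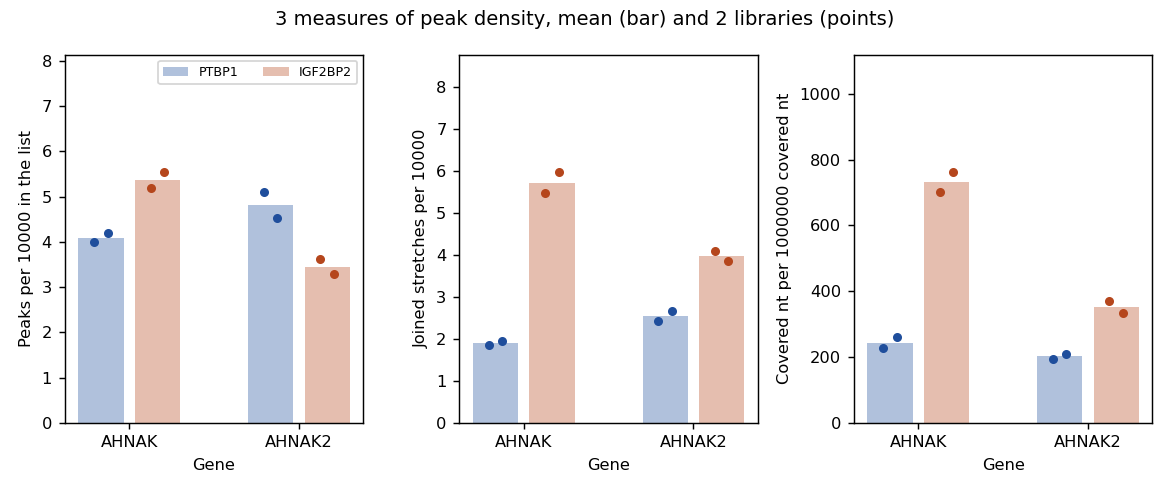
Peaks per 10000 peaks (left), joined stretches per 10000 (middle) and covered nucleotides of the gene per 1000000 covered in the list (right) in AHNAK and AHNAK2. Bars are the mean of 2 libraries and points the libraries. AHNAK2 is higher with PTBP1 by peaks and higher with IGF2BP2 by the other measures.

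The other genes with a giant coding exon and the known partners gave context for these differences. Of the 18 genes with a giant exon, 1 passed toward PTBP1 and 8 toward IGF2BP2, and their median log2 difference was -0.37 against -0.01 over all genes. The 1 was PCLO, at 2.71 (limma, adjusted p = 0.00403), from 37 and 33 peaks with PTBP1 and only 4 and 2 with IGF2BP2, none of them enriched. Those with most peaks were ZFHX3, a transcription factor gene, at 0.07 (limma, adjusted p = 0.618), PLEC at -0.71 (limma, adjusted p = 0.00302) and SRRM2, of a splicing speckle protein, at -0.05 (limma, adjusted p = 0.763). None of the 18 had as many enriched peaks as AHNAK in any list, the most being 39. Of 13 partner and relative genes 12 were tested. Toward PTBP1, 2 passed, and toward IGF2BP2, 1, with a median of -0.20; their share is that of all genes, 25.0%. The 2 were CACNA1C, of a calcium channel pore subunit, at 1.30 (limma, adjusted p = 0.00145) and DYSF, of the membrane repair protein dysferlin, at 0.78 (limma, adjusted p = 0.0149). The other was ANXA2, the annexin that binds AHNAK with S100A10, which had 84, 78, 75 and 69 peaks in the order given above and a log2 difference of -0.52 (limma, adjusted p = 0.0189). Among enriched peaks only, ANXA2 turned to 2.57 (limma, adjusted p = 0.00713). DYSF was then at -0.94 and CACNA1C at 0.94, and neither passed (limma, adjusted p = 0.0904 and 0.154). S100A10 had 16, 17, 12 and 15 peaks and -0.41 (limma, adjusted p = 0.324). PRX, the related periaxin, in both lists, had 13, 18, 6 and 13 and 0.06 (limma, adjusted p = 0.931).

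Markers could only be looked at through bound RNA, which is no measure of expression. Over the 4 lists VIM had 65 peaks, NES 71 and CD44 363, while GFAP had 7 and SOX2 had 0. Of markers of other cells, PTPRC had 34, CD68 21, EPCAM 14, CDH1 22 and ALB 0.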

How the data were processed

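RNA bound by PTBP1 and IGF2BP2 in A172 cells was measured by eCLIP, with 2 IP libraries and 2 inputs each. The submitters' processing notes name HISAT2 and hg38. Peak caller, annotation and filters: not given in the sources used here. Per the file headers, the authors deposited for each peak a −log10 p, a gene, a region label and an overlap length. The deposited column headed as a count holds log2 values, read from the values as the log2 ratio of IP to input reads plus a constant per chromosome. Whole reads were read back where ratio and p matched within 1%, which held for 98.6%, 98.4%, 99.5% and 99.6% of eligible peaks. Input libraries were used only through these ratios, and are not analysed here as libraries. Repeated lines were removed (55, 36, 3 and 3).

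Peak density, computed as log2 of 10000 × (a gene's peaks + 0.5)/(the list's peaks + 1), covered genes of 10 or more peaks in all and was tested with limma 3.58.1 in R 4.3.3 (trend, no covariates, Benjamini-Hochberg, threshold 0.05). Limma p-values for the 2 genes, and exact tests of their shares, are not printed, as peak numbers and labels chose the genes. Overlaps and lengths were computed in Python 3.11.15 with pandas 2.3.3. On simulated peak numbers for 14653 genes the density fit recovered 92% of genes changed 4-fold and 31% of those changed 2-fold. Simulated reads came back right in 99.7% of 2816 peaks. The dense block runs between replicated sense peaks 3′ of the AHNAK peaks labelled coding sequence, to the first gap over 2 kb. Alternatives were other pseudocounts, filters, scaling, lengths, overlaps and thresholds, a replicate block and each library left out.

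The genes, lists and tests were chosen with earlier results of these data known. Named were the 2 genes, the 3 giant-exon genes with most peaks, ANXA2, S100A10 and PRX, the 3 genes nearest to AHNAK by label (those nearest to AHNAK2 are not reported here), and the 3 regions found in both replicates with the highest lower score. MUC5B, KCNMA1, COL18A1, NBDY, MAD1L1, MKI67, MAP1B, PLCG1, CACNA1C, DYSF and PCLO fall outside that rule and were named after their values were seen. The same holds for AKAP12, MAP1A, MYOF and SON.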

Additional observations from a re-analysis of the deposited data

How the results depend on the processing

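Leaving aside the intron-labelled shares, which the block's definition fixes, 56 recomputed values counted as the same. For densities this meant the same direction and side of the threshold, and for exon shares the same direction alone. The AHNAK share difference thus counted as the same at 21.8 percentage points with the dense block. For shares found again it meant staying within the Wilson interval, and for enriched peaks a similar number. Of the rest, 3 were weaker (both densities without PTBP1 replicate 1, and AHNAK above input), 6 moved and 6 reversed. By log2 peak density, AHNAK reversed to 1.91 among enriched peaks only and was weaker, at -0.15, among peaks above input on the common scale. AHNAK2 reversed to -0.80 by covered nucleotides and to -0.65 with abutting peaks joined. Leaving out each library in turn gave -0.44 to -0.34 for AHNAK and 0.39 to 0.57 for AHNAK2; where a protein kept 1 library, it was assumed to vary like the rest. Genes called numbered 3782, against 6405 by covered nucleotides, 5933 joined, 975 among enriched peaks, 2267 and 2473 without PTBP1 replicate 1 or 2, and 6388 and 6097 without IGF2BP2 replicate 1 or 2. With the replicate block the values were -0.39 and 0.48, with 4763 genes called. The numbers do not pair the libraries: the correlation of deviations was -0.00157. AHNAK2 could not be fitted on enriched peaks, having fewer than 10. For the 1.096-kb stretch of AHNAK, the share difference of 0.279 percentage points reversed to -0.964 by nucleotides and to -0.259 for peaks over 4 nt. It ranged from -0.0862 to 0.644 with a library left out. The difference for the AHNAK2 exon ranged from 8.04 to 13.0. Requiring overlap of at least 50% of the peak moved the share found again to 76.7% (AHNAK, IGF2BP2 replicate 2) and 61.8% (AHNAK2, IGF2BP2 replicate 1). Scores as deposited moved the enriched AHNAK2 peaks to 305, 241, 46 and 38. The cause of these changes was not tested.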

Other observations

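AHNAK also carried peaks on the strand opposite to the gene, which AHNAK2 did not. There were 29 and 31 with PTBP1 and 22 and 32 with IGF2BP2, all 5′ of the coding labels, between positions 62537354 and 62546789 of chromosome 11. Of these, 9, 9, 19 and 22 lay across a peak on the gene's own strand, and 28, 29, 19 and 23 were found again in the other replicate. Enriched were 3, 4, 3 and 7. In the same span the gene's own strand had 9 and 9 peaks with PTBP1 and 38 and 41 with IGF2BP2. The 5′ part of AHNAK thus held more opposite-strand than sense peaks with PTBP1 and fewer with IGF2BP2, a difference that was not tested. Whether an unnamed transcript lies there was not tested.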
